A study of Mus musculus with 4 samples.

Results

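The genes described here are those of the cytosolic ribosome: 84 of the 38457 mouse features, chosen by symbol alone (Rps or Rpl followed by a number, with the endings that mark variants such as Rpl36a or Rpl22l1, together with Rpsa, Rplp0, Rplp1 and Rplp2). The rule uses no measured value. Symbols ending in -ps, which mark pseudogenes, and the Rps6k kinases were left out. The members comprise 32 genes of the small subunit and 52 of the large subunit. In GENCODE release M21 83 of them are protein-coding, and Rpl6l is a processed pseudogene. Rps12 had no count in any library and the other 83 were counted.

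Islet cells from the pancreas, of mice whose genotype label is WT or Sin3A mutant, were measured with inDrop, which captures single cells in droplets and reads a tag from the 3′ end of each messenger RNA. There are 2 libraries per label, described as biological replicates, so the p-values reflect only how far these libraries spread. Each label has a title ending in _2426, here A, and a title ending in _3165, here B. Values for all 4 libraries are listed as WT A, then mutant A, then WT B and mutant B. Sin3a encodes the scaffold of a histone deacetylase complex. Allele, Cre driver, targeted cells and age of the mice: not given in the sources used here. No label says that the WT mice carry a further change.

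A ribosome joins a small subunit, which reads the messenger RNA, with a large subunit, which forms the peptide bond, and each ribosomal protein is present once in most ribosomes, with the P-stalk proteins Rplp1 and Rplp2 in more copies. Ribosomal protein messages are among the most abundant in growing cells, and their translation is controlled through a stretch of pyrimidines at the 5′ end that responds to mTOR signalling. Insulin-secreting beta cells devote much of their RNA to hormone messages, while glucagon-secreting alpha cells, somatostatin-secreting delta cells, endothelial cells and mesenchymal cells of the islet do so to other degrees or not at all.

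The start sites of 6 members show how runs of pyrimidines differ among them. Each line gives the sense strand from 20 bases before the RefSeq start to 20 bases from it, with the longest run of C or T in capitals, for members on which the results below turn.
Rplp2: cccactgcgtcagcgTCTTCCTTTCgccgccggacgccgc
Rpl38: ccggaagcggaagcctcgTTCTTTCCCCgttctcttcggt
Rpl5: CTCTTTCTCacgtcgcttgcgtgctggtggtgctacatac
Rps23: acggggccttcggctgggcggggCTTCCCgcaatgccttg
Rpl36a: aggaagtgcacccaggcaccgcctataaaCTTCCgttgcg
Rpl23: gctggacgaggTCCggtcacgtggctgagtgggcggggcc
On GRCm38.p6 these lie at chr7:141447631-141447670 (plus strand), chr11:114668560-114668599 (plus), chr5:107900508-107900547 (plus), chr13:90923102-90923141 (plus), chrX:134585634-134585673 (plus) and chr11:97782420-97782459 (minus). The runs measure 10 bases in Rplp2 and Rpl38, 9 in Rpl5, 6 in Rps23, 5 in Rpl36a and 3 in Rpl23. They cross the RefSeq start in Rplp2 and Rpl38, follow it in Rps23 and Rpl36a, and lie before it in Rpl5 and Rpl23. In GENCODE, however, Rplp2, Rpl38, Rpl5 and Rps23 begin before these windows, so their runs lie inside the annotated genes. Those genes begin at chr7:141447370, chr11:114668524, chr5:107900502 and chr13:90922958. RefSeq promoters were matched for 63 of the 84 members, as 75 entries. A run of at least 6 C or T bases in this window was present in 60.0% of the members' entries and in 37.5% of all 32851 promoters. The letters CGGAAG, searched on both strands over 300 bases around the start, were present in 60.0% of the members' entries and in 16.9% of all promoters. These are letter matches only.

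In cells kept after filtering, the members held 572479, 347024, 561318 and 682930 counts, or 4.54%, 3.77%, 5.48% and 5.64% of all counts of the 4 libraries. A few genes made up much of this: the 5 highest held 26.6% of the members' counts and the 10 highest 41.0%. Rpl23, a large-subunit protein (chr11:97777527-97782437, minus strand), led with 146844 counts, followed by Rps23, a protein of the decoding centre, with 139669. Rps14 had 114417, Rps27a, which is made as a fusion with ubiquitin, 94012, and Rps13 81062. At the other end, 14 members had fewer than 2000 counts, among them Rpl3l with 19 and Rpl35 with 42. These are counts of 3′ tags and were not divided by transcript length.

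Many ribosomal protein genes have near-copies elsewhere in the genome, and a low count of such a member cannot be read as low expression. Of the 31-base words in the last 300 bases of each member's transcripts, a median of 55.4% also occur in transcripts of other annotated genes. For Rps12 this share was 87.1%, for Rpl35 96.7% and for Rpl36a it covered all words, whereas Rpl12, Rpl27a, Rpl37, Rps20 and Rpl6 share none. The 14 members under 2000 counts had a median of 71.8% and the other 70 a median of 52.7%. The lowest counts were not all of this kind: the paralogs Rpl3l and Rpl10l, with 19 and 116 counts, share no word, and Rpl39l, with 83 counts, shares 3.15%. Over the 84 members Spearman's rho between counts and this share was -0.199, across genes, which are not independent replicates. Reads that fit several genes may have been dropped or split, so the levels of members with shared ends are uncertain. The symbols ending in -ps held 4969 counts in all. Some members also overlap another gene (Rpl5 overlaps Fam69a, Rps14 Ndst1 and Rps27a Clhc1), and the use of strand in counting was not stated in any source used here.

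Cells were divided by genes outside the ribosome. A cell entered a hormone gate if at least 2% of its counts were from insulin genes, glucagon, somatostatin or pancreatic polypeptide, and the multi-hormone gate if it passed for more than 1. The remaining cells were assigned to a lineage with at least 3 of its marker genes. A gate is a range of counts and not a cell type. The insulin gate held 610, 688, 796 and 786 cells, the glucagon gate 126, 127, 514 and 373, the mesenchymal gate 107, 49, 161 and 460, and the endothelial gate 58, 39, 66 and 138. Endothelial-gated cells carried a median of 10 of the endothelial markers in each library, and mesenchymal-gated cells a median of 9, 5, 7 and 8 of the mesenchymal ones. In insulin-gated cells both medians were 0, and acinar markers had a median of 0 in every gate.

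Library mutant B stood apart inside the insulin gate. The median insulin share of its cells was 3.62%, against 14.7% in WT A, 28.9% in mutant A and 7.93% in WT B, and 440 of its 786 cells lay below 4%, against 5, 4 and 8 cells in the other libraries. Insulin in cells outside the hormone gates was far lower, with medians of 0.202%, 0.219%, 0.121% and 0.0492%. Median counts per kept cell were 9997, 7605, 5306 and 4448.5 and median mitochondrial shares 4.68%, 3.25%, 5.89% and 7.06%. Levels below are in CPM, a gene's counts over the sum of its library and gate, times 1000000. Sin3a in insulin-gated cells had 25, 51.7, 41.0 and 18.5 CPM, higher in the library labelled mutant within A and lower within B. A 3′ tag outside the changed part of the gene does not check the label, so groups are named by their labels.

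Of the 6 gates with at least 20 cells in every library, insulin-gated cells gave the smallest share of their counts to ribosomal protein genes. The share was 4.13%, 2.95%, 3.74% and 4.93% in these cells, and 7.50%, 8.56%, 9.13% and 7.59% in mesenchymal-gated cells, where it was the highest of these 6 gates in each of the 4 libraries. Glucagon-gated cells stood at 5.36%, 7.04%, 7.23% and 5.07%, somatostatin-gated cells at 5.30%, 5.12%, 5.06% and 5.23%, and endothelial-gated cells at 5.84%, 6.53%, 7.46% and 7.50%. Exact binomial 95% intervals were narrow, for example 4.12% to 4.15% for insulin-gated cells of WT A, and cover counting error only. The order of the gates between these extremes changed with the library: glucagon-gated cells were above endothelial-gated cells in mutant A and below them in the other 3 libraries.

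**Figure D1:**
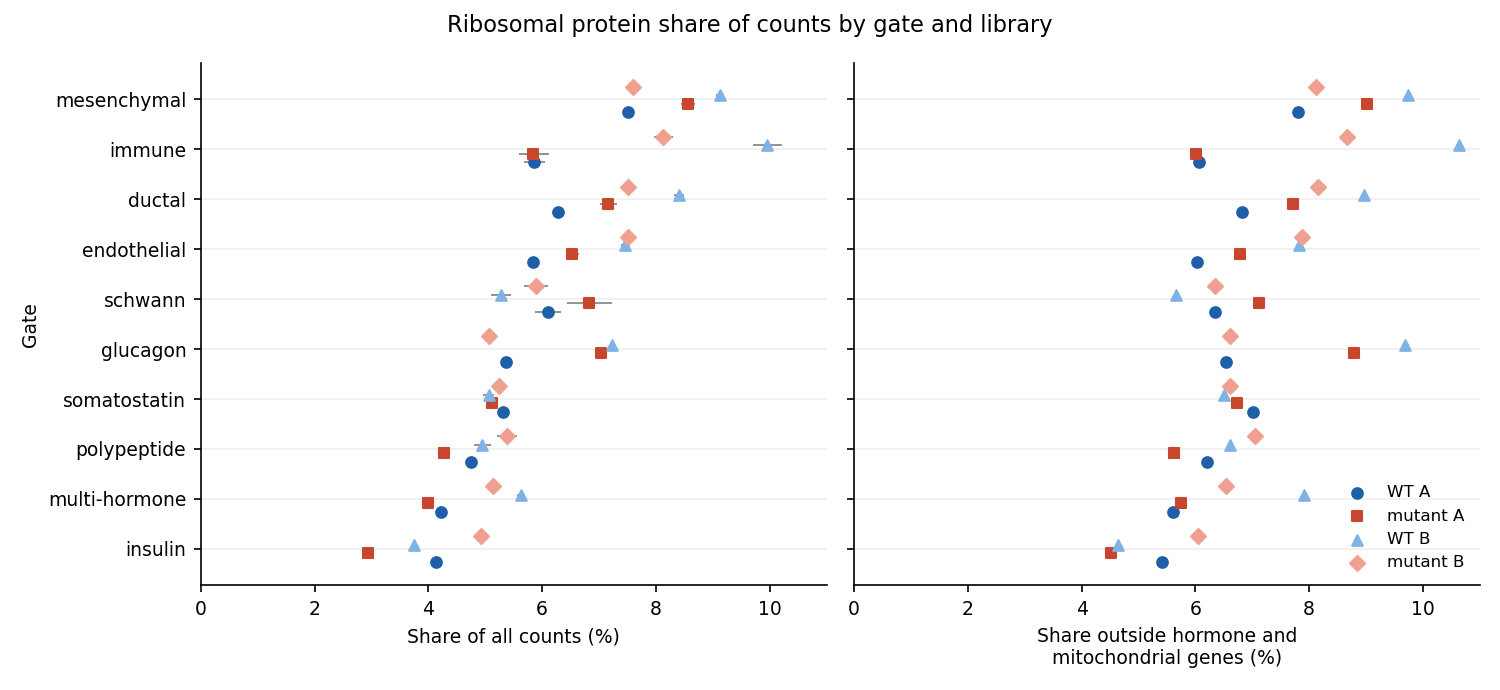
Share of counts from ribosomal protein genes (%, horizontal axes) in each hormone and lineage gate other than the erythroid gate, with 1 point per library. The left panel takes all counts, with exact 95% binomial intervals as bars, and the right panel counts outside hormone and mitochondrial genes. Insulin-gated cells lie lowest on the left among the gates with at least 20 cells in every library, from 2.95% to 4.93%, and mesenchymal-gated cells lie between 7.50% and 9.13%.

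The difference from insulin-gated cells was positive in 4 of 4 libraries for each of the 5 gates tested. Mesenchymal-gated cells were higher by 3.37, 5.62, 5.39 and 2.66 percentage points (mean 4.26 ± 1.47, SD, n = 4), and endothelial-gated cells by 1.70, 3.59, 3.72 and 2.58 (mean 2.90 ± 0.945). Glucagon-gated cells were higher by 1.23, 4.10, 3.49 and 0.142 points (mean 2.24 ± 1.87), so that in mutant B they lay close to the insulin-gated cells. The somatostatin gate gave a mean of 1.24 ± 0.764 points and the multi-hormone gate 0.806 ± 0.837. An exact two-sided sign-flip test over 4 libraries gave p = 0.125 for each gate (0.125 adjusted over the 5), the smallest that 4 libraries allow. Depth differed between gates, with median counts of 12966.5, 9317, 6099.5 and 6603.5 in insulin-gated cells and 4800, 3505, 3577 and 2398.5 in mesenchymal-gated cells. The part of depth in the gate differences was not tested.

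A share falls when other genes take more of the counts, and the share alone cannot tell this apart from fewer ribosomal protein messages. With hormone and mitochondrial genes left out of the total, insulin-gated cells stood at 5.42%, 4.51%, 4.64% and 6.05%, and mesenchymal-gated cells at 7.80%, 9.02%, 9.74% and 8.12%. The mean difference was then 3.52 ± 1.51 points for mesenchymal-gated and 2.75 ± 2.24 for glucagon-gated cells, again positive in 4 of 4 libraries (exact sign-flip p = 0.125 for each). Endothelial-gated cells were higher by 0.606, 2.27, 3.18 and 1.83 points. Inside the insulin gate of WT A, cells with 5 to 10% insulin, 10 to 20% and above 20% had shares of 5.51%, 5.40% and 5.47% on this scale, from 44, 482 and 75 cells. In WT B the same ranges gave 4.65%, 4.44% and 4.43%, from 595, 143 and 20 cells. In mutant A they gave 3.94%, 4.82% and 4.48%, from 11, 71 and 601 cells. Most insulin-gated cells of mutant B, 523 of 786, held 2 to 5% insulin and had 5.88%, and its cells with 5 to 10% and 10 to 20% had 6.38% and 6.22%. On the scale of all counts and over the same ranges, the share was lower with more insulin in WT A (4.48%, 4.14% and 3.82%) and WT B (3.79%, 3.41% and 2.95%). It had no such order in mutant A (3.25%, 3.61% and 2.89%). Mutant B fell from 5.03% at 5 to 10% insulin to 4.68% at 10 to 20%, with 1 cell above 20%. Cells with 2 to 5% insulin had 4.44%, 8.07%, 4.65% and 4.91% of all counts, from 9, 5, 38 and 523 cells. Outside hormone and mitochondrial genes these cells had 5.39%, 9.08%, 5.42% and 5.88%.

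Single cells varied around these sums. In insulin-gated cells of WT A the cell at the 10th percentile had a share of 3.21% and the cell at the 90th 5.26%, and in mesenchymal-gated cells of the same library these were 4.56% and 11.1%. The smaller gates were described without a test. Ductal-gated cells held 6.28%, 7.16%, 8.40% and 7.51%, and immune-gated cells 5.86%, 5.85%, 9.96% and 8.13%, from as few as 6 cells. Erythroid-gated cells, filled with hemoglobin messages, had 1.62%, 0.418%, 3.21% and 4.56% from 6, 5, 11 and 11 cells. Cells of the multi-hormone gate differed between libraries in kind: 129 of 144 and 121 of 143 passed for insulin in WT A and mutant A, but 8 of 59 in WT B and 44 of 77 in mutant B.

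Gene by gene, most members were higher in mesenchymal-, glucagon- and endothelial-gated cells than in insulin-gated cells. In mesenchymal-gated cells 72 of 78 tested members passed as higher and none as lower (edgeR's quasi-likelihood test with library as a block, Benjamini-Hochberg adjusted over 10892 genes), while 27.2% of all genes passed as higher. In glucagon-gated cells 60 of 78 passed as higher, against 11% of all genes, and in endothelial-gated cells 53 of 78, against 26.4%. No member passed as lower in either, where 11.6% and 27.7% of all genes did, and 25.8% in mesenchymal-gated cells. The members' median log2 difference was 0.94 in mesenchymal-, 0.60 in glucagon- and 0.59 in endothelial-gated cells, beside 0.01, 0.06 and -0.07 over all genes. Not every member was higher in every library. In CPM, 73 of 77 members were higher in all 4 libraries in mesenchymal-gated cells, 46 of 77 in glucagon-gated and 65 of 77 in endothelial-gated cells. The 3 comparisons share the insulin-gated sums and come from the same joint fit over all tested gates. Their SEs and p-values thus rest on a spread pooled over the gates. They do not rest on how far each gate's own difference varied between libraries. DESeq2 called 73, 64 and 55 members. The glucagon count rests on 2 libraries: without mutant A it was 14 (of 76 tested), and without WT B 18. Without WT B the endothelial count was 35. With a gate of 5% the glucagon count was 32, and with no filter on low counts the glucagon and endothelial counts were 25 and 20.

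**Figure D2:**
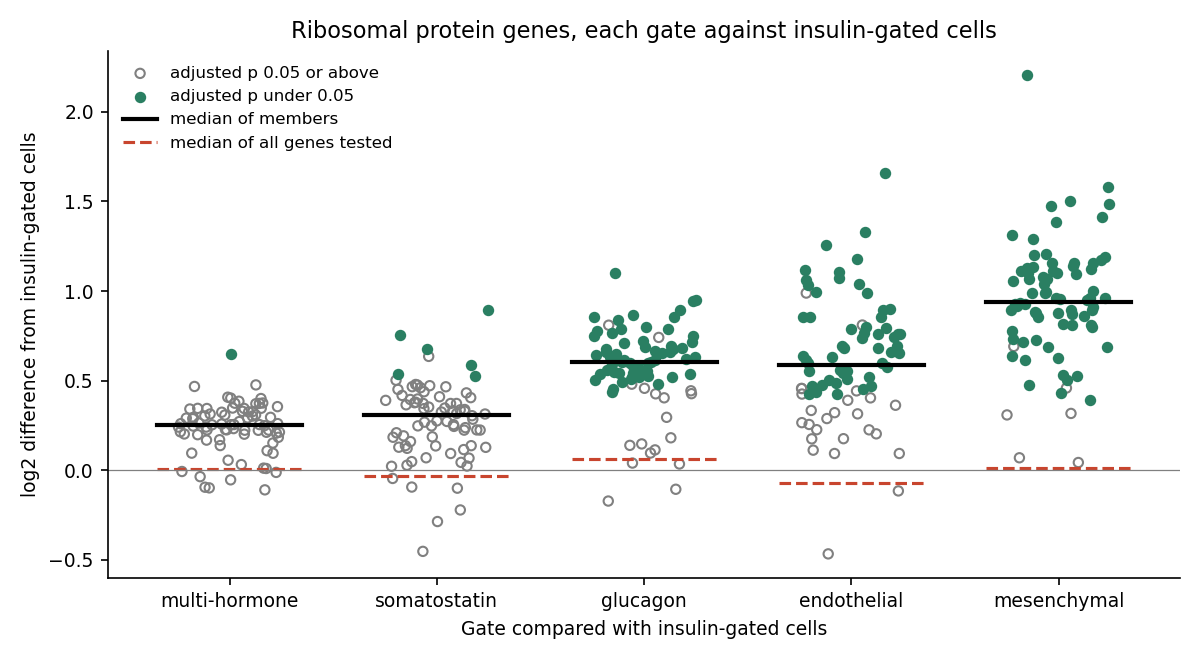
log2 difference of each ribosomal protein gene from insulin-gated cells (vertical axis) in 5 gates (horizontal axis, points spread sideways for legibility). Filled points passed at an adjusted p under 0.05, the solid bar is the members' median and the dashed bar that of all genes tested. The members' medians run from 0.25 in the multi-hormone gate to 0.94 in the mesenchymal gate.

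The member with the largest difference in mesenchymal- and endothelial-gated cells was Rpl36a, a large-subunit protein encoded on the X chromosome (ENSMUSG00000079435, chrX:134585654-134588062, plus strand). It stood at 192, 135, 251 and 336 CPM in insulin-gated cells and at 791, 971, 1404 and 1226 CPM in mesenchymal-gated cells. The groups did not overlap, and the log2 difference was 2.21 ± 0.20 (SE, edgeR adjusted p = 3.93e-10). Endothelial-gated cells held 616, 622, 900 and 955 CPM, a difference of 1.66 ± 0.20 (edgeR adjusted p = 5.83e-08). In somatostatin-gated cells the difference was 0.89 ± 0.20 (edgeR adjusted p = 0.00239). All of its 3′ end is shared with other annotated genes, so part of these counts may belong elsewhere.

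The calls came from both subunits. In mesenchymal-gated cells 29 of 31 small-subunit and 43 of 47 large-subunit members passed as higher, and in glucagon-gated cells 25 of 31 and 35 of 47. Rpl39, a short protein that lines the exit tunnel, went from 738, 391, 615 and 660 CPM in insulin-gated cells to 1641, 1727, 1858 and 1341 CPM in mesenchymal-gated cells, a log2 difference of 1.39 ± 0.16, and these groups did not overlap. In glucagon-gated cells Rpl39 was at 539, 614, 754 and 414 CPM and did not pass (log2 -0.11 ± 0.16, edgeR adjusted p = 0.70).

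In glucagon-gated cells the 5 members of smallest p were Rpl37a, Rpl9, Rpl13a, Rpl17 and Rpl35a. Rpl37a, a zinc-binding large-subunit protein, stood at 511, 537, 296 and 298 CPM in insulin-gated cells and 873, 1531, 628 and 406 in glucagon-gated cells (log2 0.89 ± 0.16, edgeR adjusted p = 9.67e-05). It was higher in each library, while the gates overlapped across libraries, since both libraries of A lay above those of B in each gate. Rpl9 had few counts, 32.3, 27.9, 13.8 and 10.6 CPM against 66.8, 107, 25.3 and 16.9 (log2 1.10 ± 0.20). Rpl13a, Rpl17 and Rpl35a gave 0.94 ± 0.18, 0.80 ± 0.15 and 0.85 ± 0.17. In endothelial-gated cells Rps29 had a log2 difference of 1.18 ± 0.17. Rps15a was among the members of smallest p in mesenchymal-gated cells, at 1.41 ± 0.18.

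Of the 5 members with most counts, 4 passed in each of these 3 gates. Rpl23 stood at 1594, 887, 2453 and 4870 CPM in insulin-gated cells and 3301, 3228, 8777 and 9219 CPM in mesenchymal-gated cells, higher in 4 of 4 libraries (log2 1.31 ± 0.18, edgeR adjusted p = 6.6e-07). It passed in glucagon- and endothelial-gated cells as well, and so did Rps23, Rps14 and Rps13 in all 3. Rps27a passed in mesenchymal-gated cells (log2 0.69 ± 0.16) but not in glucagon-gated (0.44 ± 0.16, edgeR adjusted p = 0.052) or endothelial-gated cells (0.23 ± 0.16). Rpsa, the laminin receptor protein of the small subunit, gave 0.92 ± 0.16, 0.43 ± 0.16 and 0.31 ± 0.16 in the same order and passed in the mesenchymal gate of these 3.

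The P-stalk is where translation factors bind. Rplp0, its base, was at 988, 799, 1118 and 1274 CPM in insulin-gated cells and 2055, 2272, 2425 and 1958 CPM in mesenchymal-gated cells (log2 0.99 ± 0.16, edgeR adjusted p = 9.1e-06), without overlap. In glucagon-gated cells it was at 881, 1384, 1574 and 871 CPM and did not pass (0.10 ± 0.16). Rplp1 passed in mesenchymal-gated cells (0.89 ± 0.19) and had 0.04 ± 0.19 in glucagon-gated cells. Rplp2 passed in both (0.88 ± 0.20 and 0.85 ± 0.20) and not in endothelial-gated cells (0.39 ± 0.21, edgeR adjusted p = 0.13).

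Paralogs are given beside their parent genes. Rpl22l1, a paralog of Rpl22, stood at 152, 125, 210 and 168 CPM in insulin-gated cells and 331, 412, 446 and 325 CPM in mesenchymal-gated cells (log2 1.14 ± 0.17, edgeR adjusted p = 2.3e-06). In glucagon-gated cells it was at 152, 194, 285 and 150 CPM and did not pass (0.18 ± 0.17), while Rpl22 did (0.63 ± 0.20, edgeR adjusted p = 0.021). Whether the paralog and its parent differ in this was not tested. Rps27l, a target of p53, was at 103, 68.1, 25.1 and 37.9 CPM in insulin-gated cells and passed in none of the 5 gates. Rps27, its parent, had 8.92, 13.4, 7.20 and 3.92 CPM there and passed in none either. These 2, Rpl23a and Rpl27 were the 4 of 78 tested members that passed in neither mesenchymal-, glucagon- nor endothelial-gated cells. Rpl7l1 passed in endothelial- and mesenchymal-gated cells, at 1.03 ± 0.22 and 0.86 ± 0.21. Rpl39l had 5, 8, 7 and 8 counts in insulin-gated cells, and Rpl3l and Rpl10l were also too low to be tested between gates.

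Fewer members passed in the somatostatin and multi-hormone gates. In somatostatin-gated cells 6 of 78 members passed as higher (6.67% of all genes did) and none as lower (7.57% of all genes): Rpl36a, Rps6, Rpl17, Rps4x, Rpl30 and Rpl5. Rps6, the small-subunit protein phosphorylated downstream of mTOR, was at 453, 290.0, 269 and 334 CPM in insulin-gated and 826, 551, 489 and 463 CPM in somatostatin-gated cells (log2 0.68 ± 0.17, edgeR adjusted p = 0.00849). The share of members called was thus close to that of all genes. DESeq2 called 18 members and RLE size factors 11. Without WT A, mutant A or WT B, 1, 2 and 1 were called, and with no filter on low counts none was higher and 3 were lower. In the multi-hormone gate Rpl36a alone passed (log2 0.65 ± 0.19, edgeR adjusted p = 0.0486, beside 3.69% of all genes higher and 1.4% lower), and without any 1 of the 4 libraries no member did. Rpl35a had the next smallest p (0.47 ± 0.17).

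Other genes of the translation machinery were taken from 4 lists. Of the ribosome-associated genes 6 of 6 tested passed as higher in mesenchymal-gated cells, 5 of 6 in endothelial-gated and 2 of 6 in glucagon-gated cells, where 27.2%, 26.4% and 11% of all genes did. Naca, a chaperone at the exit tunnel, was at 432, 276, 345 and 394 CPM in insulin-gated and 716, 800, 848 and 715 CPM in mesenchymal-gated cells (log2 1.03 ± 0.15), without overlap. Its partner Btf3 gave 0.89 ± 0.15. Of 21 translation factors 12 passed as higher and 1 as lower in mesenchymal-gated cells, with Eif4ebp1, which holds the cap-binding factor Eif4e, at 1.81 ± 0.22. In glucagon-gated cells 6 were higher, among them Eif4b (0.82 ± 0.16) and Eif3f (0.68 ± 0.17), and 1 was lower. Medians were 0.44 and 0.34.

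Genes that build ribosomes passed in both directions. Of 25 tested biogenesis genes 8 passed as higher and 2 as lower in mesenchymal-gated cells, led by the nucleolar chaperone Npm1 (1.29 ± 0.17). The share higher was thus near the 27.2% of all genes. In glucagon-gated cells 1 of the 25 was higher, Npm1 (0.54 ± 0.17), and 2 were lower, where 11% and 11.6% of all genes were. Those lower included Myc, a transcription factor that drives ribosome synthesis (-1.77 ± 0.42). Myc stood at 91.3, 23.9, 22.8 and 128 CPM in insulin-gated and 25.9, 12.8, 17.8 and 13.2 CPM in glucagon-gated cells. In endothelial-gated cells 3 passed as higher and 6 as lower, where 26.4% and 27.7% of all genes did. Proteins of the mitochondrial ribosome, which are encoded by other genes, had medians of 0.13, 0.01 and -0.13 in mesenchymal-, glucagon- and endothelial-gated cells, with 8 higher and 8 lower of 75 in the first, below the 27.2% and 25.8% of all genes.

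Cycling was compared inside the insulin gate. After each cell had been thinned to 2000 counts, those with at least 2 counts over 10 proliferation markers were taken as cycling (102, 90, 108 and 128 cells) and those with none as non-cycling (406, 399, 508 and 520). Cells with 1 count (61, 71, 85 and 101) and shallower cells (41, 128, 95 and 37) were left out. Ribosomal protein genes held 3.98%, 2.67%, 3.49% and 4.74% of the counts of cycling cells and 4.19%, 3.01%, 3.80% and 4.94% of those of non-cycling cells. The cycling value was lower in 4 of 4 libraries, by a mean of 0.264 points (SD 0.0710), and outside hormone and mitochondrial genes by a mean of 0.418 points (SD 0.211), each with an exact two-sided sign-flip p of 0.125. The exact binomial 95% intervals of the cycling and non-cycling shares did not overlap in any library. They cover counting error only and not the spread between cells, so this adds no support. Cycling cells were deeper, with medians of 14176, 11104, 8122.5 and 8242.5 counts against 13442, 10447, 6376 and 6426.5, and the part of depth in the difference was not tested.

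By gene, 21 of 78 tested members were lower in cycling cells and none higher (edgeR's quasi-likelihood test with library as a block, adjusted over 14004 genes). Of all genes 7.9% were lower and 8.81% higher. The members' median was -0.14 on the log2 scale, beside -0.05 over all genes. Of the 78 tested members 32 were lower in all 4 libraries. They include 20 of the 21 called, which adds no support, since these were called from the same libraries. The log2 differences of the 21 were small, between -0.34 and -0.17. DESeq2 called 12, and 5 were called without WT B, 9 without WT A and 12 without mutant A, so the count depends on single libraries. With no filter on low counts 50 of 83 were called as lower, where 2548 of 31148 genes were lower and 777 higher. The median over all genes was then -0.29, beside -0.35 for the members.

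**Figure D3:**
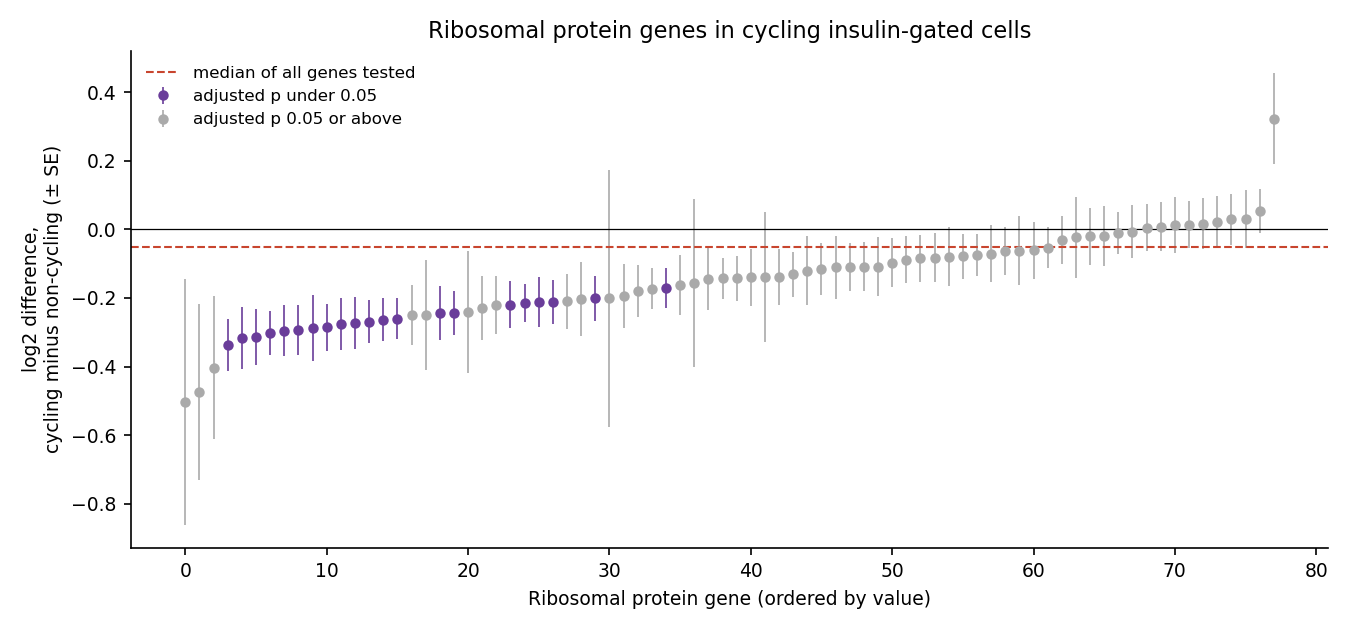
log2 difference between cycling and non-cycling insulin-gated cells (vertical axis, with SE bars) for the 78 tested ribosomal protein genes, ordered by value along the horizontal axis. The 21 members that passed are coloured and all lie below 0, and the dashed line marks the median of all genes tested, -0.05.

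Rpl5, which with Rpl11 and the 5S RNA binds Mdm2, had the smallest p of the members. It was at 948, 490.3, 1044 and 1360 CPM in non-cycling and 744, 405, 873 and 1209 CPM in cycling cells (log2 -0.30 ± 0.06, edgeR adjusted p = 0.00115), lower in each library. Rpl17 gave -0.34 ± 0.08, Rpl30 -0.26 ± 0.06, Rps14 -0.27 ± 0.06 and Rps21 -0.26 ± 0.06, each lower in each library. Rps27l went the other way in each library, with log2 ratios of 0.66, 0.10, 0.08 and 0.40, and did not pass (0.32 ± 0.13, edgeR adjusted p = 0.11). Of 21 translation factors 4 passed as lower and none as higher, among them the elongation factors Eef1a1 (-0.33 ± 0.06) and Eef2 (-0.37 ± 0.07). Their median was -0.09, and 9 of the 21 had a positive difference. Of 8 ribosome-associated genes 1 passed as higher, Nap1l1 (0.30 ± 0.08), and 2 as lower. The nucleolar proteins Nop56 (1.04 ± 0.18) and Nop58 (0.49 ± 0.12) were higher. Of 26 biogenesis genes 4 passed as higher and none as lower, and of 76 mitochondrial ribosome genes 7 as higher, with Mrpl51 at 0.63 ± 0.13, and none as lower. The share of mitochondrial ribosome genes called higher was close to the 8.81% of all genes. Glucagon-gated cycling cells, from 10, 15, 46 and 61 cells, had shares of 5.0%, 6.24%, 6.26% and 5.0% against 5.38%, 7.27%, 7.34% and 5.08% in non-cycling ones, lower in each library. The other gates varied by library. Mesenchymal-gated cycling cells were lower in 3 libraries and higher in mutant A (9.99% from 5 cells, against 8.13%). Endothelial-gated ones were lower in both libraries of A and higher in WT B (7.52% against 7.26%) and mutant B (7.51% against 7.45%). In the multi-hormone gate they were lower in 3 libraries and higher in mutant B (5.29% against 5.08%), and the somatostatin gate held 1, 1, 1 and 4 cycling cells, higher in A and lower in B. These gates were described without a test.

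The genotype label was compared next, in insulin-gated cells. The share was 3.94% ± 0.277 in the libraries labelled WT and 3.94% ± 1.40 in those labelled mutant (SD, n = 2 each, exact permutation p = 1.0, where 0.333 is the smallest p possible). The equal means hid opposite directions. Within A the library labelled mutant was lower by 1.19 points (4.13% against 2.95%), and within B it was higher by 1.19 points (3.74% against 4.93%). In glucagon-gated cells the signs were the other way, 1.68 points within A and -2.16 within B. In mesenchymal-gated cells they were 1.06 and -1.54. Over the 6 gates the exact permutation p ran from 0.667 to 1.0, all 1.0 after adjustment. The median insulin share of the same cells was higher in the library labelled mutant within A (28.9% against 14.7%) and lower within B (3.62% against 7.93%), and its part was not tested. Outside hormone and mitochondrial genes the insulin-gated values were 5.42% and 4.51% within A and 4.64% and 6.05% within B.

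No member passed between the labels in insulin-gated cells (80 tested by edgeR's quasi-likelihood test, of 16235 genes, of which 0% passed). None of the 80 had an unadjusted p under 0.05, and only 39 of the 16235 genes did (25 higher, 14 lower). With so low a rate over all genes, the absence of members is not a result about them. DESeq2 called no member and 1 gene. The SEs of the members lay between 0.57 and 1.15 on the log2 scale, with a median log2 difference of -0.05 beside -0.01 over all genes. The 3 members of smallest p were Rplp2, Rpl41 and Rpl23. Rplp2 was at 412, 187, 67.7 and 109 CPM (log2 -0.74 ± 0.77, edgeR adjusted p = 1.0). Rpl41, the shortest ribosomal protein, was at 601, 1120 and, in B, 240 and 211 CPM (0.62 ± 0.79). Rpl23 gave 0.62 ± 0.83.

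Within A and within B, most members of the insulin, glucagon, mesenchymal and endothelial gates had the same sign. In insulin-gated cells, of 77 members with at least 20 counts in every library, 62 were lower in the library labelled mutant within A and 61 higher within B, with median log2 changes of -0.43 and 0.23. All genes had medians of -0.17 and -0.11, with 40.0% higher within A and 41.4% within B. In glucagon-gated cells 72 of 75 were higher within A and 75 of 75 lower within B, with medians of 0.38 and -0.68, beside -0.14 and 0.09 over all genes, of which 40.4% and 57.0% were higher. In mesenchymal-gated cells 53 of 71 were higher within A and 69 lower within B, where 61.5% and 43.3% of all genes were higher. In endothelial-gated cells 51 of 69 were higher within A and 56 lower within B, where 54.0% and 46.9% of all genes were higher. Members were more evenly split within A in somatostatin-gated cells (34 higher and 32 lower) and in multi-hormone-gated cells (29 and 39), while within B 45 of 66 and 60 of 68 were lower. These changes compare 1 library with 1 library and have no test. Exceptions in insulin-gated cells included Rpl41, Rpl24 and Rpl10, higher by 0.90, 0.88 and 0.82 on the log2 scale within A and lower within B, named after their values were seen.

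**Figure D4:**
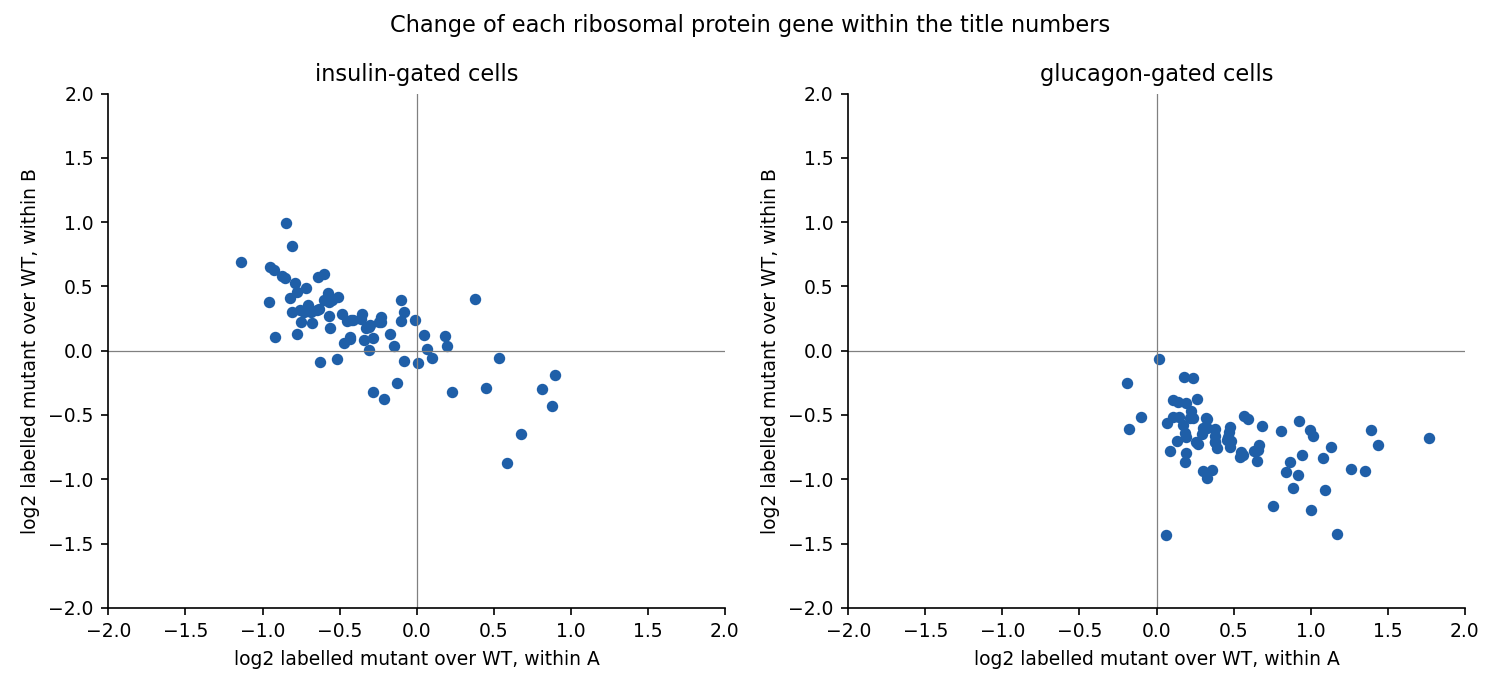
log2 ratio of the library labelled mutant to that labelled WT, within A (horizontal axis) and within B (vertical axis), with 1 point per ribosomal protein gene, in insulin-gated (left) and glucagon-gated cells (right). Points fall mostly in the upper left on the left panel, with 62 of 77 below 0 within A, and in the lower right on the right panel, with 75 of 75 below 0 within B.

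The make-up of the ribosomal protein counts differed between A and B. In insulin-gated cells Rpl23 made up 3.86%, 3.01%, 6.56% and 9.88% of the members' counts, and Rps23 3.86%, 3.09%, 7.05% and 9.40%. Rplp2 made up 0.998%, 0.635%, 0.181% and 0.222%, and Rpl38 1.34%, 1.32%, 0.324% and 0.235%. Both libraries of B thus lay above both of A for the first pair and below them for the second. Rpl41 had 1.45%, 3.80%, 0.642% and 0.428%, lower in B and highest in mutant A. In mesenchymal-gated cells the same split held, with Rpl23 at 4.4%, 3.77%, 9.62% and 12.1% and Rpl38 at 0.987%, 0.665%, 0.242% and 0.172%.

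**Figure D5:**
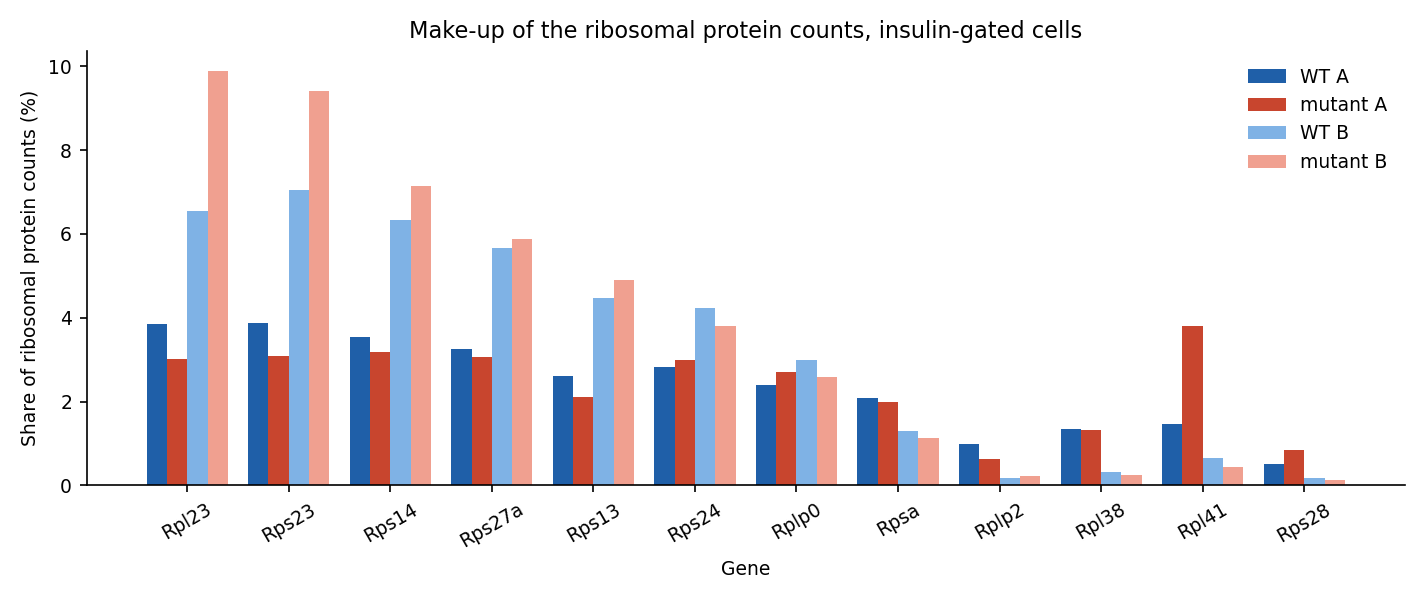
Share of the ribosomal protein counts of insulin-gated cells (%, vertical axis, from 0) taken by 12 members (horizontal axis) in the 4 libraries. Rpl23 and Rps23 are tallest in the libraries of B, up to 9.88% and 9.40%, while Rplp2, Rpl38 and Rpl41 are taller in those of A.

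Of 66 members with at least 20 counts in all libraries of all 6 gates, 12 made up more of the members' counts in B than in A under both labels in every gate, and 37 made up less. The 12 were Rpl5, Rpl7, Rpl23, Rpl30, Rpl37, Rps7, Rps13, Rps14, Rps23, Rps24, Rps25 and Rps27a, which include the 5 members with most counts. The 37 included Rpl38, Rpl41 and Rpsa. In CPM of insulin-gated cells 30.2% of all genes were above in B under both labels and 18.3% above in A, beside 19 and 37 of 77 members. In mesenchymal-gated cells these were 22.5% and 36.3% of all genes, beside 13 and 43 of 71 members. Such shares alone do not show a difference of all genes between A and B. Across 16326 genes of insulin-gated cells, deviations from the label means were nearly unrelated between libraries with the same title number (r = 0.0416). Small-subunit counts were 0.919 and 0.836 times the large-subunit counts in insulin-gated cells of WT A and mutant A, and 1.20 and 1.23 times in those of WT B and mutant B. The sources used here do not say what the title numbers stand for, so animals, preparation and sequencing cannot be told apart.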

How the data were processed

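The authors deposited 1 table per library of whole-number counts per gene and barcode, not normalized, per the file headers. Per the submitters' processing notes the builds were GRCh38 and GRCm38. Aligner, annotation, strand setting and collapsing of molecular barcodes: not given in the sources used here. Total deposited counts were 12835199, 9282495, 10350699 and 12236110. Of 6948 barcodes 6566 had at least 500 counts, 250 genes and at most 25% mitochondrial counts. Scrublet (scanpy 1.11.5) removed 40 as doublets (0.609%), leaving 6526 cells. Between 12 and 42 barcode names were shared by pairs of libraries. Counts were summed per library and gate and tested with edgeR 4.0.16 (TMM, its filter on low counts, adjusted p under 0.05) or DESeq2 1.42.0. The SE is the log2 difference divided by the square root of F. Scripts were tested on simulated data. Alternatives covered size factors, filters, gates, doublets and each library left out. Named were the 5 members with most counts, the P-stalk, Rpsa, Rps27a, paralogs with their parents, up to 5 members per direction of smallest p in each comparison (3 where fewer than 3 passed), and 2 genes per other list. Some members within this rule are not reported here, with no substitutes. The members and lists were chosen with earlier results of these data known.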

Additional observations from a re-analysis of the deposited data

Results flagged for a closer look

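In 4 gates the share of ribosomal protein counts differed between the labels in one direction within A and in the other within B, a difference that was not tested because each number holds 1 library per label. In insulin-gated cells the library labelled mutant differed from that labelled WT by -1.19 points within A and 1.19 within B. In glucagon-gated cells these were 1.68 and -2.16, in mesenchymal-gated cells 1.06 and -1.54, and in somatostatin-gated cells -0.187 and 0.177.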

How the results depend on the processing

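The label difference in the share of insulin-gated cells was 0.000219 points. It became -0.0534 as a median of single cells, and ranged from -0.991 to 0.992 with 1 library left out. No member passed between the labels under any alternative, the replicate block included (0). Libraries with the same title number did not deviate together from their label means (r = 0.0416 across 16326 genes), and no source used here says what the number marks, so they were not treated as pairs. The make-up of the members' counts did differ by number, as reported. The mean of the differences within numbers was 0.000219. The other share differences kept their direction under each alternative run.

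Counts of members called moved by more than 1.5 times in these cases, with the cause not tested except that leaving out a library leaves fewer samples. Main counts were 60 for glucagon-, 53 for endothelial-, 6 for somatostatin- and 1 for multi-hormone-gated cells as higher, and 21 for cycling cells as lower. With no filter on low counts they were 25, 20, 0, 0 and 50, and the median log2 difference over all genes was -0.71 in endothelial-gated and -0.61 in somatostatin-gated cells, where the members' median was -0.11. For cycling cells the median was then -0.29 over all genes and -0.35 over the members. DESeq2 gave 18 for somatostatin-gated and 12 for cycling cells. RLE size factors gave 11 for somatostatin- and 0 for multi-hormone-gated cells, as did leaving out hormone and mitochondrial genes for the latter (0). The gate at 5% gave 32 for glucagon-gated cells, and in it the multi-hormone gate, with fewer than 20 cells in a library, entered no test by gene, while its share difference was 0.813 points (exact sign-flip p = 0.125 over 4 libraries). With 1 library left out the counts ranged from 14 to 60 (glucagon), 35 to 52 (endothelial), 1 to 9 (somatostatin), 0 to 0 (multi-hormone) and 5 to 20 (cycling). The mesenchymal count, 72, stayed between 53 and 73 under the alternatives run.

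Each comparison rests on 4 libraries, so exact tests of shares cannot reach the threshold. Members with few counts (Rpl35, Rpl3l, Rpl39l) had too few to be tested between gates or between cycling and non-cycling cells.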
